A study of Xenopus laevis with 18 samples.

Results

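The comparison set the egg and early cleavage stages NF 0, NF 2 and NF 6 of the African clawed frog Xenopus laevis against the late cleavage stages NF 6.5, NF 7 and NF 8. NF is the Nieuwkoop and Faber staging series. Its 6 libraries, 3 earlier and 3 later, were taken by stage label from the 18 libraries of a series that ran to NF 33, and the choice used no measured value. Every library came from whole embryos of the J strain with no treatment other than their culture medium with gentamycin. The embryos had been frozen at the stage wanted, and RNA left after depletion of ribosomal RNA was sequenced. There was 1 library per stage, and the labels do not give how many embryos it held. In whole-embryo RNA, fewer cells that hold a transcript and less of it per cell cannot be told apart. The label 0 does not say whether the egg was fertilised, and NF 7 and NF 8 count as blastulae in the staging series although their cells still cleave.

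A frog egg is loaded with maternal messenger RNA, and the embryo divides on this store with very little transcription of its own until the midblastula. During this time stored transcripts are switched on and off largely by lengthening or shortening of their poly(A) tails, and some are degraded. Depletion of ribosomal RNA keeps a transcript in the library whatever its tail length. The rows of the table carry sequence names that matched 0 entries of the gene table used here, so the rows cannot be given gene names or roles and the stage labels could not be checked against marker genes.

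Both groups differed in how their columns were deposited. The columns of NF 0, NF 2 and NF 6 exceeded 1000000 by 2.72%, 2.08% and 1.48%, whereas those of NF 6.5, NF 7 and NF 8 summed to 1000000 within rounding. The kind of column and the group coincide in all 6 libraries, and their parts in a difference cannot be told apart. The excess lay in the spike-ins, 92 synthetic RNAs added as a yardstick. In the 9 columns of the series that exceed 1000000, 42 spike-in rows carried more than 2 decimals, while 0 Xenopus rows did so in any column. The decimals were those of values divided by 4 in 23 rows and by 0.67 in 17 rows, and 23 further rows held only even last digits, as values divided by 0.5 do. Multiplying these factors back left differences from 1000000 of up to 59198, and with 3 more rows set to 0.67 to fit the totals all 9 columns came to within 14.4 of 1000000. Spike-ins of this kind are sold as 2 mixes that hold the same RNAs in different proportions. The labels do not say whether both mixes were used. The shares below are alike in both groups with the factors in place. With the factors multiplied back they would differ, so before the factors the yardstick was not alike in the groups. As deposited, the rows with the factor 4 made up 8.45% to 8.89% of the spike-in total in earlier and 8.72% to 9.74% in later libraries, and those with 0.67 made up 43.4% to 44.8% and 42.9% to 45.2%. Since 0 Xenopus rows showed a factor, they were rescaled to 1000000 per library without further change, and these values are called TPM (transcripts per 1000000 of the Xenopus total).

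Library values overlapped between the groups. The Xenopus total per spike-in total was 1.18, 1.32 and 1.66 from NF 0 to NF 6, against 1.28, 1.55 and 1.42 from NF 6.5 to NF 8. The group means were 1.38 ± 0.245 and 1.42 ± 0.134 (SD, n = 3, two-sided exact permutation test, p = 0.8). With 3 against 3 stages this test cannot go below 0.1. Over the 26 spike-in rows that showed no factor, the ratio was 9.38 ± 1.58 in earlier and 9.36 ± 0.393 in later stages (SD, n = 3). Between 13149 and 13318 rows stood at 10 TPM or more in each of the 6 libraries. The top 100 rows by level made up 13.8% ± 0.474 of all Xenopus TPM in earlier and 14.7% ± 0.474 in later stages (SD, n = 3, two-sided exact permutation test, p = 0.2). The depth of the libraries is unknown, since TPM keeps no read counts.

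Most maternal transcripts had nearly the same relative level in both groups. Averaging 1 TPM or more were 17611 rows, and 87.5% of them differed by less than 1.25-fold between the group means of log2(TPM + 1), and the median change was 0.01 on this scale. The middle 90% of changes ran from -0.40 to 0.33. Rows of 10 to 100 TPM were tighter than rows of 1 to 10 TPM, with 92.1% and 73.1% of them within 1.25-fold. The added 1 makes folds of low rows appear smaller than they are. Per spike-in the median change was 0.06.

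No row passed the test between the groups in TPM. By limma with Benjamini-Hochberg adjustment at 0.05, 0 of 17611 rows (0.0%) were called in TPM, while 1171 rows were higher and 1287 lower in later stages at an unadjusted p under 0.05. The unadjusted counts are 6.65% and 7.31% of the rows tested. These counts ranged from 718 to 1646 higher and from 839 to 1741 lower on leaving out 1 library, both highest without NF 6 and lowest without NF 7 and NF 0, respectively. Their balance depended on the scale, with 479 higher and 1237 lower for values as deposited and 970 and 1426 with median ratio scaling. With the kind of column as a term over all 18 libraries there were 682 higher and 281 lower. Kind and group coincide in the 6 libraries, so that term is estimated from libraries of other stages. There kind differs only between stages, so the 682 and 281 are not counts freed of the kind of column. The stages of each group served as its replicates, so the spread behind the test holds real change between stages as well as technical spread. The counts that follow are again at an adjusted p under 0.05. With stage order of the 6 libraries as a linear term in place of the groups, 8 rows rose (0.0454%) and 44 fell (0.25%). Leaving out NF 6 gave 6 rows higher (0.0341%) and 28 lower (0.159%). Without NF 6.5 there were 4 higher, without NF 2 there were 2 higher, without NF 0 there were 2 lower, and without NF 7 there was 1 lower.

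Separation of the groups was seen among spike-ins as well as among Xenopus rows. All 3 later libraries lay above all 3 earlier ones for 1886 Xenopus rows (10.7%) and below them for 1583 (8.99%), 19.7% together. Spike-ins have no stage, although of the 6 libraries only the earlier ones carried factors in them. Of 80 tested rows scaled to the spike-in total 13 were higher (16.2%) and 7 lower (8.75%), 25.0% together. At an unadjusted p under 0.05 stood 9 of the 80 spike-in rows as higher (11.2%) and 4 as lower (5.0%), 16.2% together, against 14.0% of Xenopus rows, and limma called 0 of the 80 after adjustment. The 22 tested spike-in rows without a factor were also scaled to their own total. On that scale 2 passed this unadjusted level (9.09%) and 5 separated the groups (22.7%), of which 4 were higher (18.2%) and 1 lower (4.55%). On the scale of the 80 rows the members of this class that passed were ERCC-00042, ERCC-00053, ERCC-00054 and ERCC-00126, all higher. Those that separated the groups there were ERCC-00009, ERCC-00025, ERCC-00034, ERCC-00042, ERCC-00054 and ERCC-00126, again all higher. What the libraries themselves contribute to the separation of Xenopus rows was not tested.

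**Figure D1:**
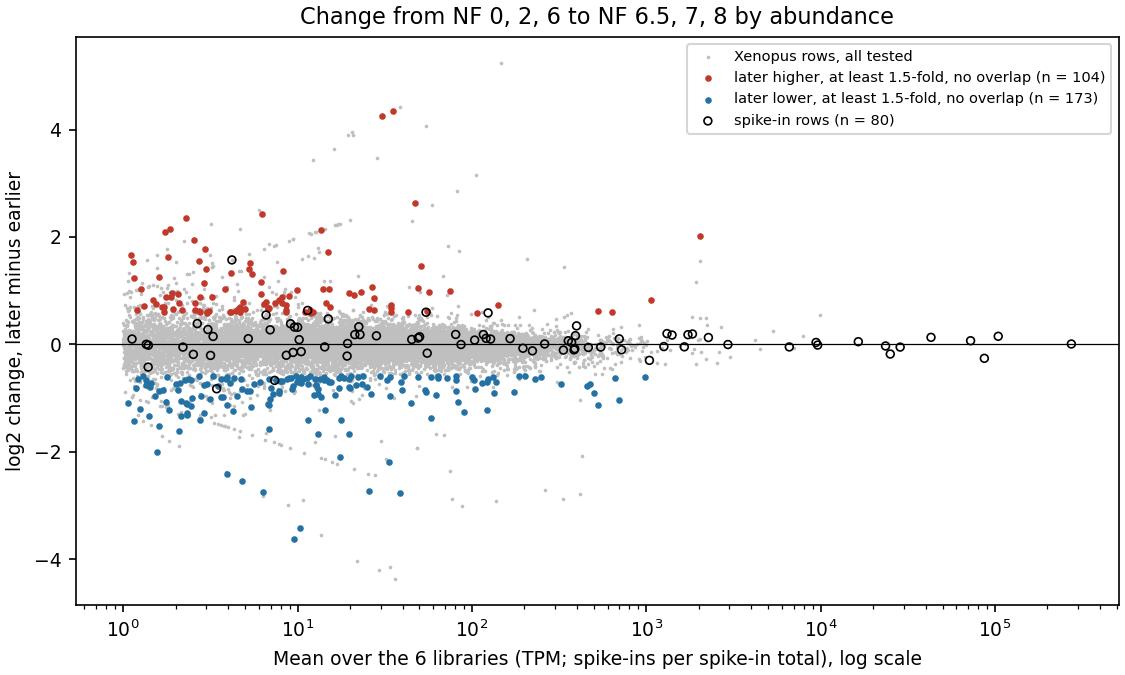
The plot shows the log2 change from earlier to later stages (vertical) against mean level (horizontal, log scale), with 1 point per row, for 17611 Xenopus rows and 80 spike-in rows. Most rows lie close to 0, and the 104 rows in red and 173 rows in blue are those with no overlap between the groups and a change of at least 1.5-fold.

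The distances between libraries placed NF 6 differently for Xenopus rows and for spike-ins. Distance was the robust SD of the log2 difference between a pair of libraries, over rows with a mean of at least 10. For Xenopus rows NF 6 lay 0.190 from NF 0 and 0.187 from NF 2, its own group, but 0.157 from NF 6.5, 0.164 from NF 7 and 0.155 from NF 8. The profile of NF 6 was thus nearer to all 3 later libraries than to either earlier one. For spike-ins the order was the reverse, with NF 6 at 0.131 from NF 0 and 0.126 from NF 2, and at 0.210, 0.204 and 0.161 from NF 6.5, NF 7 and NF 8. NF 0 and NF 2 lay 0.152 apart for Xenopus rows, and the 3 later libraries 0.144 to 0.165 apart. These distances describe single libraries and were not tested.

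**Figure D2:**
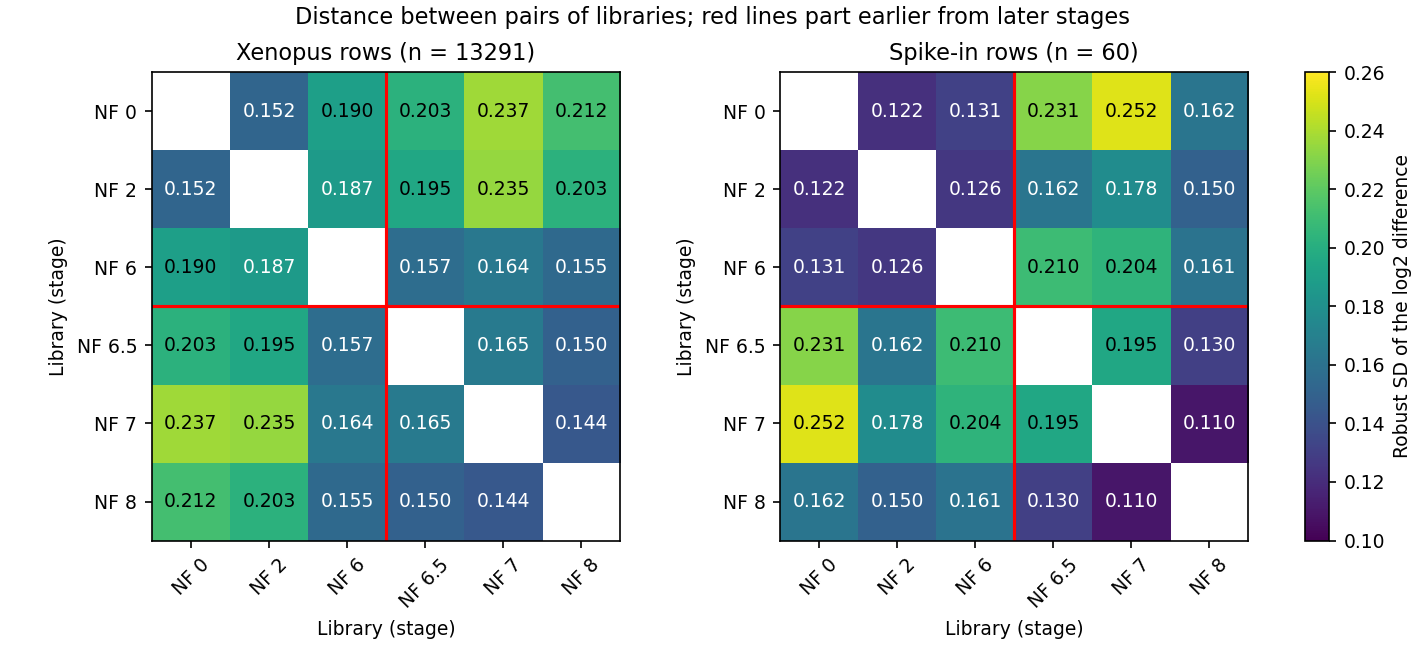
Each cell gives the robust SD of the log2 difference between 2 libraries, for 13291 Xenopus rows on the left and 60 spike-in rows on the right, with stages on both axes and red lines between the groups. NF 6 is close to NF 6.5, NF 7 and NF 8 on the left (0.155 to 0.164) and close to NF 0 and NF 2 on the right (0.126 and 0.131).

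Rows at least 2-fold apart were about as often higher as lower, 132 against 138 over all rows tested and 51 against 52 at a mean of 10 TPM or more. Among those whose groups did not overlap, more were lower. At least 1.5-fold and without overlap, 173 rows were lower (0.982%) and 104 higher (0.591%). At least 2-fold, 48 were lower (0.273%) and 34 higher (0.193%). Many rows of the 1.5-fold sets were low. Only 90 of the 173 and 35 of the 104 had a mean of 10 TPM or more, against 13291 of all 17611 rows tested. A value listed at 0 in the lower group was held by 25 and 20 of them. Among the 173 lower rows NF 6 was the lowest earlier library in 117 (67.6%), against 58.4% of all 1583 lower rows without overlap, and in 69 it was past the midpoint between the mean of NF 0 and NF 2 and that of the later stages. Among the 104 higher rows NF 6 was the highest earlier library in 45 (43.3%), against 50.8% of all 1886, and in 9 it was past that midpoint.

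Per spike-in, rows without overlap were more often lower than higher, 728 (4.13%) against 378 (2.14%) and 6.27% together, whereas in TPM the higher ones were more frequent. On this scale the libraries of a group spread widely, and a row had to change by up to 1.29-fold upwards or 1.32-fold downwards before its groups parted. No overlap in TPM and per spike-in held for 240 higher rows (1.36%) and 503 lower rows (2.86%), 4.22% together. Of the 2194 rows of 100 to 1000 TPM, the abundant part of the maternal store, 4 were higher (0.182%) and 98 lower (4.47%) on both scales. The class as a whole was not shifted downwards, with 93.2% of its rows within 1.25-fold in TPM. Its median log2 change was -0.008 in TPM and 0.04 per spike-in. Of the 4320 rows of 1 to 10 TPM, 134 were higher (3.10%) and 155 lower (3.59%) on both scales. In TPM alone, 251 rows of 100 to 1000 TPM were higher (11.4%) and 372 lower (17.0%) without overlap. Over all rows tested these shares were 10.7% and 8.99%.

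Per spike-in, limma called 20 of 17626 rows (0.113%), 10 higher (0.0567%) and 10 lower (0.0567%). On this scale an error in the spike-in total of a library enters all its rows alike. The fit pools spread over rows as if their errors were independent, so these calls and their adjusted p may overstate the evidence. At an unadjusted p under 0.05 there were 309 higher (1.75%) and 388 lower (2.2%), 3.95% together. On leaving out 1 library the higher count ranged from 186 without NF 0 to 2336 without NF 6 and the lower from 283 to 549, and library weights gave 7992 and 2602. The differences of the 20 ran from 1.03 to 4.39 upwards and, in absolute size, from 1.09 to 3.58 downwards on the log2 scale. They were mostly low rows, with a median level of 14.3 TPM among the higher and 8.18 TPM among the lower, and 5 and 6 of them had a value listed at 0. All 20 also parted the groups in TPM without overlap. At NF 8.5, a library outside the calls whose title reads NF8_II although its stage label is 8.5, 8 of the 10 higher and 9 of the 10 lower rows lay on the later side of the midpoint between the group means, against 64.9% and 65.7% of all rows with that direction. In the NF 9 library 6 of the 10 higher and 10 of the 10 lower rows did so, against 63.2% and 69.1% of all. The 20 were chosen for large gaps, whereas most rows changed little, so the shares over all rows are a low bar. No call was left (0 rows) once low rows were kept in the fit, and with the spike-in rows without a factor as the yardstick 1 higher and 2 lower rows were called. Without NF 6.5 the calls were 63 higher and 36 lower, and without NF 0 they were 3 and 9. Without NF 2 they were 17 and 6, and without NF 7 they were 5 and 8.

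The 4 rows below were those with the lowest unadjusted p, 2 in each direction, among 120 higher and 372 lower rows that averaged 10 TPM or more in their higher group and did not overlap on either scale. The rule had asked for an adjusted p under 0.05 in TPM, which 0 rows met. None of the 4 is called in TPM, and each had an adjusted p of 0.163 there.

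Row XeXenL6RMv10011699m was lower in late cleavage. Its TPM values were 163, 206 and 149 from NF 0 to NF 6 and 71.1, 78.7 and 68.6 from NF 6.5 to NF 8. The groups lay apart, at 173 ± 30.0 and 72.8 ± 5.23 TPM (SD, n = 3), with the step between NF 6 and NF 6.5. The log2 change was -1.22 with a standard error of 0.120 in TPM. Per spike-in it was -1.18 with a standard error of 0.191 and a limma adjusted p of 0.019. The row lay between 86.3 and 97.3 TPM from NF 8.5 to NF 14 and had 386 TPM at NF 33, above its value at NF 0.

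The other lower row, XeXenL6RMv10032918m, was tighter within the groups and had a smaller difference. Its TPM values were 141, 134 and 127 from NF 0 to NF 6 and 95.5, 95.04 and 99.0 from NF 6.5 to NF 8. The groups did not overlap, at 134 ± 6.70 and 96.5 ± 2.15 TPM (SD, n = 3). Its log2 change was -0.47 with a standard error of 0.0542 in TPM, and -0.42 with a standard error of 0.179 per spike-in. Per spike-in it was not called (limma adjusted p = 1.0). Later values were 61.6 TPM at NF 8.5, 36.6 TPM in the NF 10 library and 84.8 TPM in that of NF 12.

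Row XeXenL6RMv10046795m had the larger difference of the higher pair. Its TPM values were 5.43, 2.55 and 5.82 from NF 0 to NF 6 and 27.5, 20.6 and 20.1 from NF 6.5 to NF 8. The means were 4.60 ± 1.79 and 22.7 ± 4.17 TPM (SD, n = 3), 4.94-fold higher in later stages, and the groups did not overlap. In TPM the log2 change was 2.13 with a standard error of 0.264 (limma unadjusted p = 6.73e-05). Per spike-in it was 2.16 with a standard error of 0.263 (limma unadjusted p = 9.42e-08, adjusted p = 0.00083). Change and standard error were nearly the same on both scales, so the lower p per spike-in does not show a larger or steadier change. Past the comparison the row had 9.70 TPM at NF 8.5, 16.3 TPM in the NF 9 library and 1.69 TPM in that of NF 12. Its 3 highest TPM values of all 18 stages were those of late cleavage, whereas per spike-in NF 23 at 21.7 exceeded NF 8 at 20.6.

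Row XeXenL6RMv10039237m was higher in late cleavage and higher again in the gastrula. Its TPM values were 18.8, 20.3 and 19.6 from NF 0 to NF 6 and 33.9, 31.1 and 29.6 from NF 6.5 to NF 8. The groups stood apart at 19.5 ± 0.761 and 31.5 ± 2.21 TPM (SD, n = 3), a ratio of 1.61. The log2 change was 0.66 with a standard error of 0.0811 in TPM and 0.71 with a standard error of 0.194 per spike-in. Per spike-in it was not called (limma adjusted p = 0.299). It had 40.4 TPM at NF 8.5 and 93.2 TPM at NF 12.

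**Figure D3:**
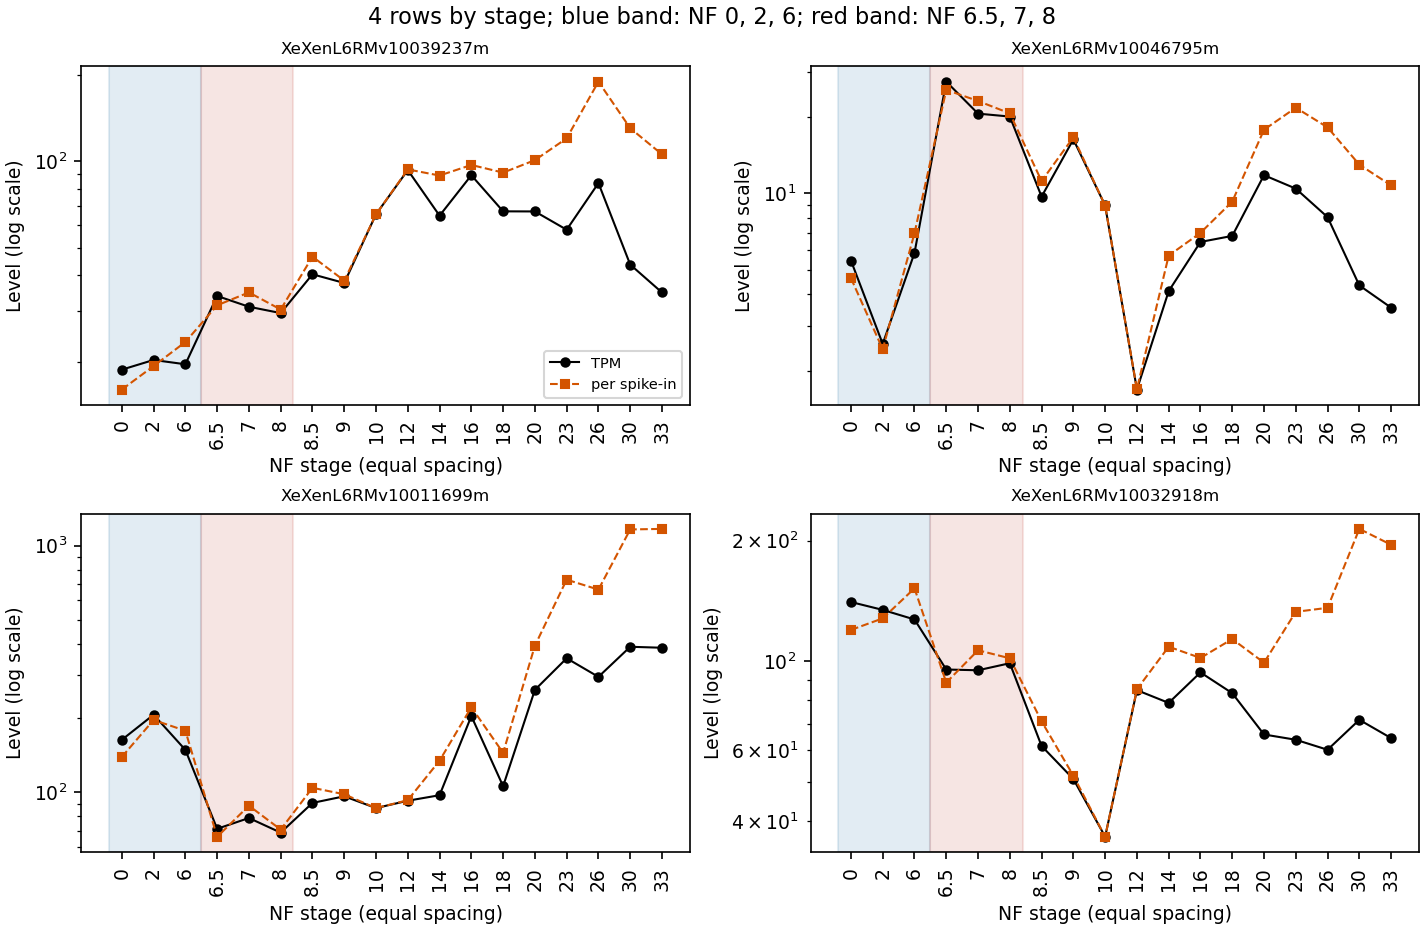
The level of the 4 rows is plotted on a log scale over all 18 stages, in black as TPM and in orange per spike-in, with NF 0 to NF 6 shaded blue and NF 6.5 to NF 8 shaded red. XeXenL6RMv10046795m has its highest value in the red band, and XeXenL6RMv10011699m goes from 149 to 71.1 TPM where the bands meet.

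Most rows lower in late cleavage at an unadjusted p under 0.05 were also on the later side of the midpoint between the group means at NF 8.5. The midpoint rests on the libraries that chose the rows. Rows chosen for a gap large against their spread keep to a side more readily than rows with little change, which most rows are. The share over all rows is thus a low bar, and the choice in part fixes an excess over it. NF 8.5 and NF 9 enter no call, and their columns exceed 1000000 like those of the earlier stages. What this means for the kind of column was not tested. Of the 1287 rows lower at an unadjusted p under 0.05, 1099 (85.4%) lay on that side, and 825 (64.1%) were below even their later mean. For all 8176 rows with a lower mean of log2 values in later stages, these shares were 65.7% and 53.7%. Of the 1171 rows higher at this level, 893 (76.3%) kept to the later side, against 64.9% of all 9435 rows with a higher mean. Their later mean was exceeded by 625 of the 1171 (53.4%), about the same as the 53.0% of the 9435. The higher sets chosen by size or by both scales lay close to or below the share over all rows. At NF 8.5 the later side was held by 65.4% of the 240 rows higher on both scales, by 61.5% of the 104 rows at least 1.5-fold higher and by 58.8% of the 34 at least 2-fold higher, and the last share was 47.1% at NF 9, against 63.2% of all. For the lower sets the shares at NF 8.5 were 82.9% of 503, 79.8% of 173 and 79.2% of 48 rows. At NF 10 the later side was held by 87.6% of the lower and 52.0% of the higher rows of the unadjusted sets, against 80.4% and 38.8% of all rows with that direction.

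The 173 rows at least 1.5-fold lower had a median log2 difference from NF 0 of -0.25 at NF 6 and of -0.95 to -1.08 from NF 6.5 to NF 8. Their median was -0.94 at NF 8.5 and -1.59 at NF 10. The 104 rows at least 1.5-fold higher were at medians of 0.91 to 1.03 from NF 6.5 to NF 8, 0.83 at NF 8.5 and 0.00 at NF 12. Every one of these medians is a difference from NF 0, which helped to choose the rows, so the choice fixes them in part at all stages.

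**Figure D4:**
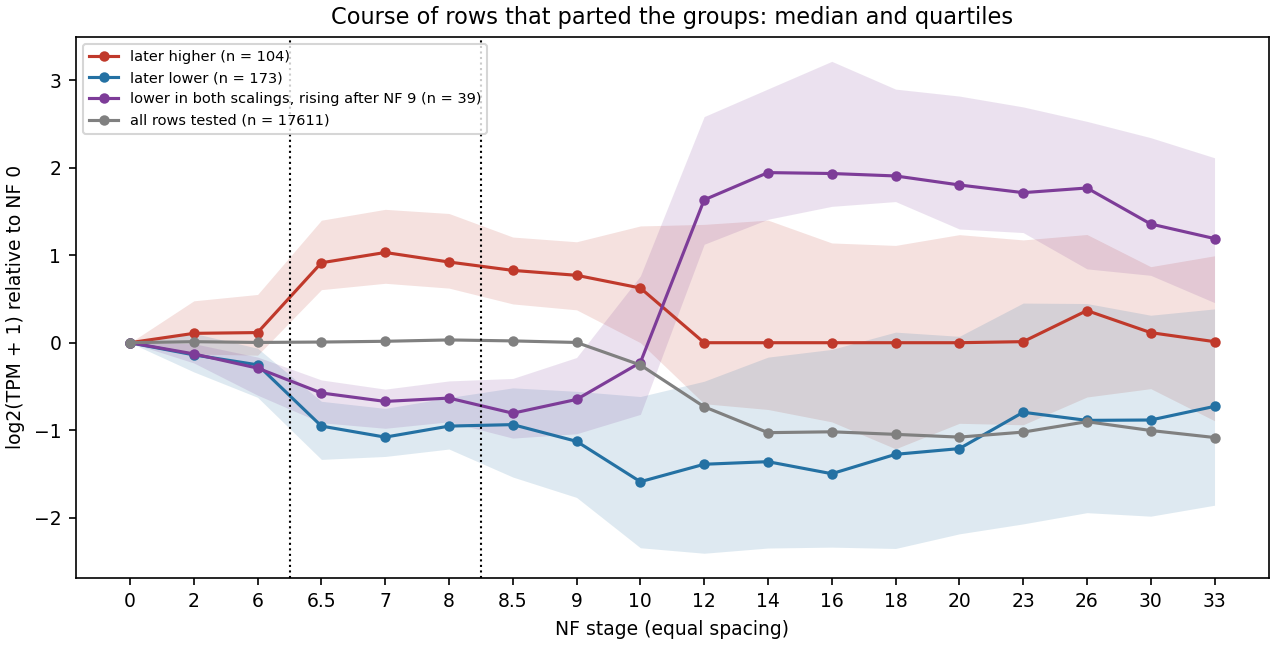
Lines give the median over rows of log2(TPM + 1) relative to NF 0 at each stage, and bands give the quartiles. Red and blue are rows at least 1.5-fold higher or lower without overlap, and grey, without a band, is all rows tested. Purple is the 39 rows that rise after NF 9 and were also chosen as lower without overlap on both scales. Dotted lines enclose the later group, and at NF 8.5 the red and blue medians are at 0.83 and -0.94.

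Transcripts whose relative level drops around gastrulation showed no shift of their median in late cleavage. This class was set by NF 8.5, NF 9, NF 12 and NF 14 alone, as rows at least 4-fold higher in the mean of the first pair than in that of the second and at 10 TPM or more there. The class demands a high level at NF 8.5 and NF 9, next to NF 8, so its choice works against rows lower in late cleavage. Of its 3279 rows 3254 were tested, and their median log2 difference was 0.01, as over all rows. Without overlap in TPM 348 were higher (10.7%) and 331 lower (10.2%), close to the 10.7% and 8.99% of all rows tested. Rows level within 2-fold over the same 4 libraries had a median of 0.03, with 760 of 5379 higher (14.1%) and 479 lower (8.91%). The most abundant falling row that parted the groups on both scales stood at 660, 602 and 545 TPM in the earlier and 457, 365 and 407 TPM in the later stages, in stage order. It had 433 TPM at NF 8.5 and 33.8 TPM at NF 14 (limma adjusted p = 0.183). This row and the examples without a name below were picked after their values were seen.

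Transcripts that rise at least 4-fold after NF 9, by the opposite rule, were more often lower than higher in late cleavage. Of 1463 such rows 513 passed the filter on low values, and their median log2 difference was -0.05. Without overlap in TPM 28 were higher (5.46%) and 63 lower (12.3%), against 10.7% and 8.99% of all rows tested. On both scales 11 were higher (2.14%) and 39 lower (7.60%), against 1.36% and 2.86% of all rows. The class demands a low level at NF 8.5 and NF 9, next to NF 8, so its direction is partly fixed by its choice. The median log2 difference of the 39 rows was -0.50, and in 38 of them the mean of NF 12 and NF 14 exceeded that of the earlier stages. That count is largely fixed by the choice too, since the class demands a rise of at least 4-fold after NF 9. The most abundant of the 39 rows had TPM values of 893, 844 and 463 from NF 0 to NF 6 and of 363, 293 and 305 from NF 6.5 to NF 8. Its largest step among these 6 libraries lay between NF 2 and NF 6, within the earlier group. It had 126 TPM at NF 10 and 2900 TPM at NF 33 (later minus earlier -1.14 on the log2 scale, limma adjusted p = 0.208).

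**Figure D5:**
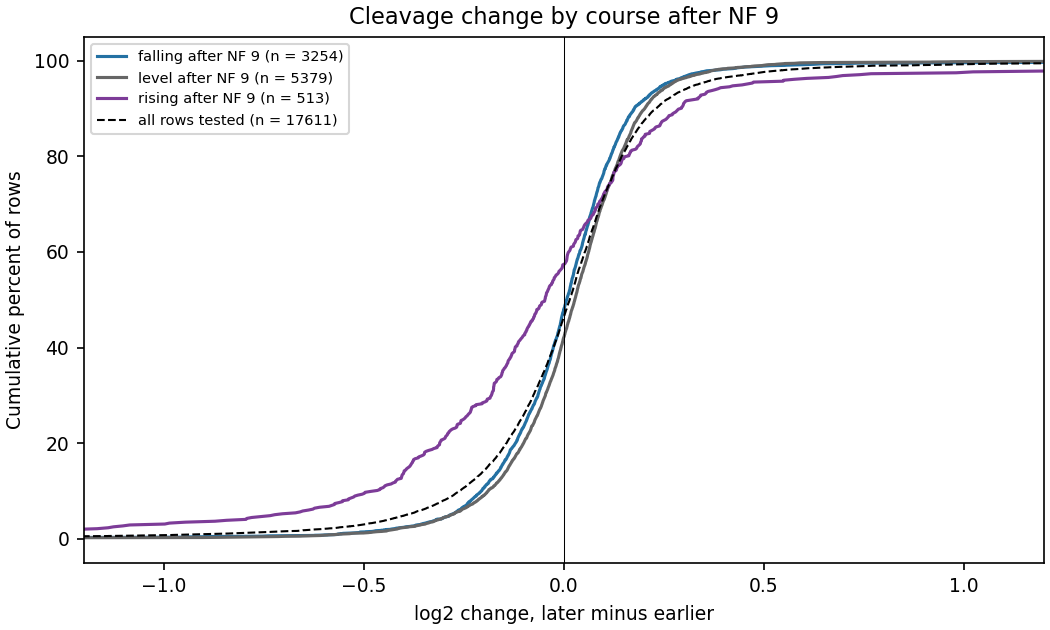
Curves give the cumulative percent of rows (vertical) at or below a log2 change from earlier to later stages (horizontal), for rows that fall, stay level or rise after NF 9 and for all rows tested. The falling and level curves run close to that of all rows, with medians of 0.01 and 0.03. The rising curve has a median of -0.05 and is wider, with a robust SD of 0.267 against 0.165 for all rows. It lies to the left of the curve of all rows in its lower part and at its median, and to the right near its upper end.

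Few rows appeared or vanished in cleavage. The table holds 30993 Xenopus rows. Listed at 0 in all 3 earlier libraries and above 0 in all 3 later ones were 51 rows, and the reverse held for 33 rows. At 1 TPM or more on the present side there were 4 rows of the first kind and 2 of the second. At 5 TPM or more on the present side there were 0 rows of either kind. A value listed at 0 is not proof of absence in a table without counts.

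Of the 35 rows of 1000 TPM or more, 8 were higher (22.9%) and 7 lower (20.0%) without overlap in TPM. The shares over all rows tested were 10.7% and 8.99%. On both scales 0 were higher (0.0%) and 5 lower (14.3%), against 1.36% and 2.86% of all rows. Among the 35, 0 were at least 2-fold lower and 3 at least 2-fold higher, and the libraries of those 3 disagreed. The pair with overlap between the groups moved together, and one of them stood at 775, 820 and 1542 TPM in the earlier and 5172, 904 and 2330 TPM in the later stages, in stage order. Its level then swung between 2701 and 16420 TPM in later development, so single libraries set its group means. The third parted the groups in TPM, at 262, 642 and 2200 TPM and then 4147, 2346 and 2534 TPM, with most of the difference inside the earlier group (limma adjusted p = 0.294). Per spike-in its NF 6 value of 2632 lay above those of NF 7 and NF 8, 2631 and 2608, so the groups overlapped on that scale. Another row had 617, 776 and 906 TPM in the earlier and 1060, 1491 and 1549 TPM in the later stages (log2 change 0.83, limma adjusted p = 0.216). Per spike-in it had 526, 739 and 1084 and then 984, 1673 and 1594, and the groups overlapped at NF 6 and NF 6.5.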

How the data were processed

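RNA of whole Xenopus laevis embryos was measured in 18 libraries, of which 6 entered the comparison. The submitters' processing notes list RSEM, Bowtie, Trimmomatic and CASAVA 1.8.2 without saying what each did, and the reference is not stated there. Deposited values were TPM in 9 columns, including NF 6.5, NF 7 and NF 8. The other 9 deposited columns held a signal on the same scale whose spike-in rows carried factors. Xenopus rows were rescaled to 1000000 per library. For the scale per spike-in they were divided by the spike-in total and multiplied by its mean over the 6 libraries. Groups came from the stage labels. Rows with a mean of at least 1 over the 6 libraries were tested as log2(value + 1) in R 4.3.3 by limma 3.58.1, using an intensity trend and 4 residual degrees of freedom, with Benjamini-Hochberg adjustment at 0.05. Library values were compared by exact permutation with scipy 1.17.1. The fit was tested on simulated data in which libraries varied independently, without the ordered change between stages that the real groups may hold. The members and lists were chosen with earlier results of these data known. Named rows follow the rule given with them, and gene lists needing symbols were not run. The use of NF 8.5 and NF 9 for rows at an unadjusted p, and both uses of the spike-in rows without a factor, were chosen after seeing the data. Alternatives covered the pseudocount, the filter, the scaling, library weights, a stage trend, all 18 libraries in 1 fit and leaving out each library.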

Additional observations from a re-analysis of the deposited data

How the results depend on the processing

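In TPM the count of 0 calls in each direction held with pseudocounts of 0.1 and 5 and without a filter. It also held with a mean of at least 10, with array weights, as deposited and with median ratio scaling. It moved to 8 higher and 44 lower with a linear stage trend and to 1 lower with all 18 libraries in 1 fit. With the kind of column as a term over all 18 libraries there were 0 calls as well. Kind and group coincide in the 6 libraries, so that term is estimated from libraries of other stages. There kind differs only between stages, so this fit cannot show whether the result depends on the kind of column. Leaving out 1 library gave 0 to 6 higher and 0 to 28 lower. Per spike-in the 10 higher and 10 lower calls moved to 6 and 6 with a pseudocount of 5, 0 and 0 without a filter, 60 and 72 with a mean of at least 10, 0 and 1 with all 18 libraries, 7301 and 2304 with array weights, 1 and 3 with the median ratio of the spike-ins, and 1 and 2 with the spike-in rows without a factor. A stage trend gave 28 higher. Leaving out 1 library gave 3 to 63 higher and 6 to 36 lower. Spike-in rows had 0 calls, 2 lower with the median ratio of the spike-ins and 0 to 1 lower when a library was left out. The cause of these moves was not tested. The 4 named rows kept their direction in every setting examined for them, and both lower ones were called in TPM without NF 6, at limma adjusted p of 0.024 and 0.038. They were not examined with the stage trend or with alternatives of the fit per spike-in. Differences of library values, later minus earlier, changed sign on leaving out a library for the spike-in percentage (-3.11 to 1.002), Xenopus per spike-in (-0.0664 to 0.171) and per spike-in without a factor (-0.623 to 0.872), and rows at 1 TPM (-47.0 to 66.2) and 10 TPM or more (-45.7 to 43.5). No paired analysis was possible because each stage has 1 library and the replicate numbers only name the stages. With 1 library per stage and unknown depth, noise in a library cannot be told apart from its stage.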
